A study of Mus musculus with 6 samples.

Results

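The 10 genes described here encode granule proteases of basophils and mast cells, together with a pair of granzymes. They are Mcpt8, Prss34, Cpa3, Cma1, Tpsb2, Tpsab1, Tpsg1, Mcpt4, Gzmb and Gzmc, and they were taken by symbol from a table of raw read counts for 37043 gene symbols. The counts come from bulk RNA sequencing of mouse bone marrow-derived basophils (BMBAs) that received PBS or 10 ng/mL IL-3 for 6 h, with 3 libraries per group. Both groups are C57BL/6J WT cells from 7 days of bone marrow culture at a cytokine dose of 0.3 ng/mL, which the methods of the study name as IL-3. Enrichment relied on beads that bind CD49b, an integrin that basophils share with NK cells, so that other marrow cells could remain. Libraries of a group stem from separate cultures of a single experiment, so the p-values measure the spread between cultures and not between repeated experiments. Whether the cultures came from separate mice is not stated. It is not stated whether the PBS cultures kept any IL-3 in their medium.

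Library totals ranged from 10537540 to 13999287 counts. All 10 genes passed the filter on low counts and were tested among 16675 genes. Libraries of the same group correlated at r = 0.985 to 0.988 over log2 values and libraries of different groups at 0.952 to 0.957. The label was checked against the markers of each cell type. All 10 basophil markers were detected and tested, including Cd200r3 at 581 ± 39.7 (PBS) and 1446 ± 19.2 CPM (IL-3) (mean ± SD, n = 3), where CPM is the count of a gene scaled to a common library size with TMM factors (trimmed mean of M values). Monocyte and macrophage markers were abundant too. Their summed level was 11800 to 12700 CPM in the PBS libraries and 6160 to 6780 CPM in the IL-3 libraries, most of it from Lyz2 alone (10460 ± 432 and 5348 ± 316 CPM). The basophil markers summed to 3820 to 4050 and 10700 to 11000 CPM, and Lilrb4a held 1068 ± 16.0 and 5386 ± 74.5 CPM of that. Because a few genes carry these sums, they do not measure how much RNA each cell type gave. In bulk RNA, a change in the number of cells of a type and a change in RNA per cell cannot be told apart.

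Granule proteases are made as inactive precursors, activated by removal of a short leading peptide, and stored in secretory granules bound to the proteoglycan serglycin until degranulation. Basophils of the mouse are known for Mcpt8 (mMCP-8), a granzyme-like serine protease used as their marker, and Prss34 (mMCP-11), which is related to tryptases. Mast cells are known for chymases (Cma1 or mMCP-5, Mcpt4 or mMCP-4), tryptases (Tpsb2 or mMCP-6, Tpsab1 or mMCP-7) and carboxypeptidase A3 (Cpa3), a zinc metalloprotease. Granzyme B (Gzmb) is best known from cytotoxic lymphocytes, where it cleaves proteins after aspartate. The chymases, Mcpt8 and the granzymes lie together on chromosome 14, Prss34 and the tryptases lie together on chromosome 17, and Cpa3 lies alone on chromosome 3.

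The coding sequence around the catalytic serine is shown because it is what the serine proteases of this set share, while the sequence on either side separates the chymases, granzymes and tryptases. A search for the 5 codons of this motif found 1 match in frame in each of the 9 serine proteases and none in Cpa3. Each stretch is 63 bases of the coding strand from GENCODE M21 (build GRCm38), and the capitals mark the 15 bases of the motif, whose second codon is that of the serine.
Mcpt8, coding bases 574 to 636: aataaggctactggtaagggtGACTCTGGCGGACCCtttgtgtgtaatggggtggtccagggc
Gzmb, coding bases 583 to 645: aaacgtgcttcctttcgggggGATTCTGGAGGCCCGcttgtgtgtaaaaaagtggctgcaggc
Gzmc, coding bases 586 to 648: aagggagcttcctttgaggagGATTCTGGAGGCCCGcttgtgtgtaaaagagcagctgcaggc
Cma1, coding bases 622 to 684: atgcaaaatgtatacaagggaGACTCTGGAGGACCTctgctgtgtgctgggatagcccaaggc
Mcpt4, coding bases 580 to 642: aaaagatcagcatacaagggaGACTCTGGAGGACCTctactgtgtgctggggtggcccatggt
Prss34, coding bases 676 to 738: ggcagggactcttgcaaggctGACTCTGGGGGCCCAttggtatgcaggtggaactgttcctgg
Tpsb2, coding bases 649 to 711: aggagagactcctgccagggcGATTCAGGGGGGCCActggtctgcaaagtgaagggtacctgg
Tpsab1, coding bases 751 to 813: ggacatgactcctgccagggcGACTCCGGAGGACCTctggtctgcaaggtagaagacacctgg
Tpsg1, coding bases 616 to 678: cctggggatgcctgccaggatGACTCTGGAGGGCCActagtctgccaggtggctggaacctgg

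The 9 motifs had 7 different spellings. Cma1 and Mcpt4 shared one spelling, and Gzmb and Gzmc shared another. Identity over the aligned bases of the coding sequences was 78.0% for Gzmb and Gzmc, 77.1% for Tpsb2 and Tpsab1, 71.3% for Cma1 and Mcpt4, 67.1% for Mcpt8 and Cma1, and 66.5% for Mcpt8 and Gzmb. Mcpt4 was closer to its neighbours Mcpt1 (87.0%) and Mcpt2 (80.5%), which were themselves 82.7% identical. These similarities bear on the counts, because reads were mapped to transcripts. No stretch of 50 bases of Mcpt8, Prss34, Cpa3, Tpsb2, Tpsab1, Tpsg1 or Gzmb occurred in a transcript of another symbol. The share of such stretches was 5.38% for Cma1 (all with the pseudogene Gm48934), 5.48% for Mcpt4 (all with Cma2) and 4.14% for Gzmc (mostly with Gzme), so the counts of these 3 genes are slightly uncertain.

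The sequences before the starts of the 4 genes that were most abundant with IL-3 are shown, since their changes ran from that of Prss34, which was not called, to that of Gzmb. They are from RefSeq on build GRCm38.p6, written on the strand of the gene, and they end at the base before the transcript start. The Mcpt8 stretch is 174 bases, trimmed to the part before both its RefSeq and its GENCODE start, and the others are 250 bases. Capitals mark GATAA, the core that GATA factors bind.
Prss34, chr17:25298144-25298393, plus strand: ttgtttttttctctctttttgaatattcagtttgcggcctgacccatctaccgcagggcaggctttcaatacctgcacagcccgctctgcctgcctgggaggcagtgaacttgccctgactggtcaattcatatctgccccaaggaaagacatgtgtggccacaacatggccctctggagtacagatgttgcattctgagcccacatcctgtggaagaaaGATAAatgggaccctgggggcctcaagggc
Mcpt8, chr14:56085274-56085447, minus strand: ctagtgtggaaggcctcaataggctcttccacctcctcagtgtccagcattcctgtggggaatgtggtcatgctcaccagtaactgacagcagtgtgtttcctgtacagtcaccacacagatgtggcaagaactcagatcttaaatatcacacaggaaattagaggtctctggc
Gzmb, chr14:56262335-56262584, minus strand: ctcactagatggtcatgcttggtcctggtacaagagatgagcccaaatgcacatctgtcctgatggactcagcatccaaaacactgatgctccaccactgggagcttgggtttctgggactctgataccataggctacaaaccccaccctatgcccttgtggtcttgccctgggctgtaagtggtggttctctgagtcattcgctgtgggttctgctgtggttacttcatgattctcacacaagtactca
Cpa3, chr3:20242182-20242431, minus strand: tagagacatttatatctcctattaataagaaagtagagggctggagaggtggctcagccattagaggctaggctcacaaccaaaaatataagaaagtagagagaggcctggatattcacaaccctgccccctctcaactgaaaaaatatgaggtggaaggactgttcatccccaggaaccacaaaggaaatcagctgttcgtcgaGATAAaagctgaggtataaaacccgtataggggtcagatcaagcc

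GATAA was searched on both strands of the 250 bases before each RefSeq start, and 22.6% of 32851 promoters held it. Prss34 and Cpa3 each had 1 match, which began 30 and 45 bases before the end of the stretch. Cma1, Mcpt4 and 1 of the 2 windows of Tpsg1 also had 1 match each, and Mcpt8, Gzmb and Gzmc had none. TTCNNNGAA, the core that STAT5 binds, was found in 7.02% of promoters and in none of these windows. Tpsb2 and Tpsab1 were not searched.

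With IL-3, 6 of the 10 genes were higher, none was lower and 4 were not called (adjusted p below 0.05). Gzmb rose most, then Tpsg1, Cma1, Tpsb2, Mcpt8 and Cpa3, and the basophil protease Prss34 was not called. Among all genes tested, 18.0% were called higher and 20.2% were called lower, 38.2% in all. The median log2 fold change was 0.74 over the 10 genes and -0.0033 over all genes tested. The 6 called genes were also those whose IL-3 libraries all lay above all PBS libraries, a pattern that 23.8% of all tested genes had. Another 24.4% lay wholly below, so that 48.2% of tested genes had groups that did not overlap.

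**Figure D1:**
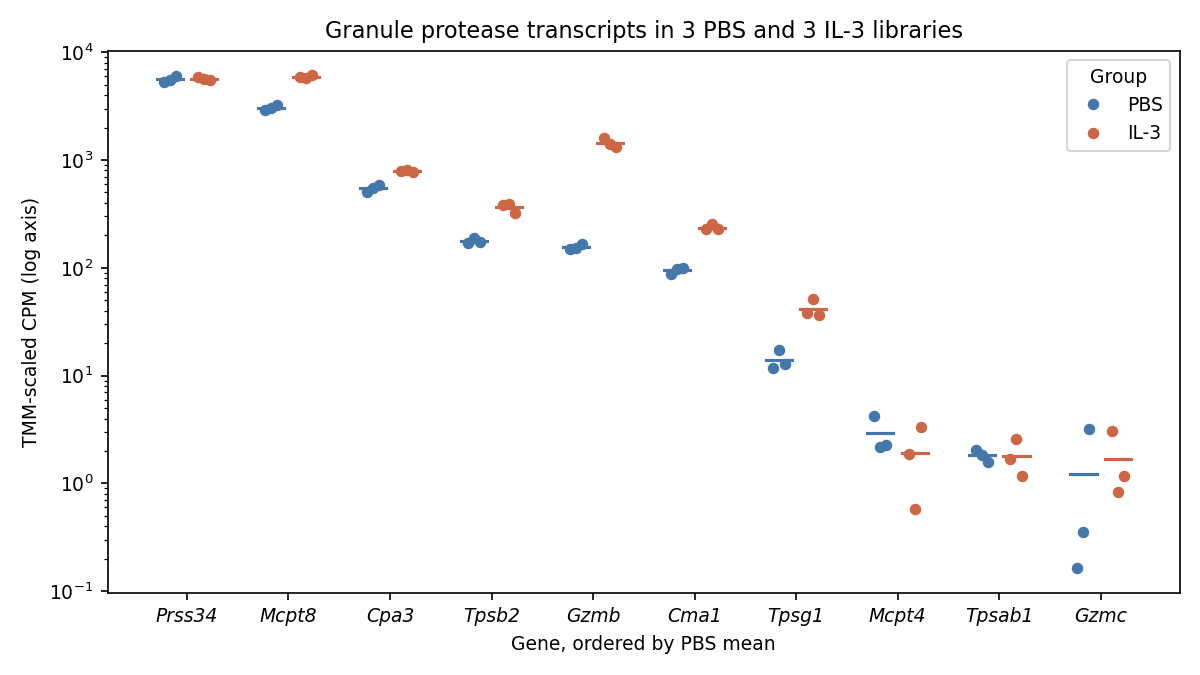
TMM-scaled CPM (log axis) of the 10 genes in each of the 3 PBS and 3 IL-3 libraries, ordered by the PBS mean, with points for libraries and bars for group means. Prss34 overlaps between groups at 5615 and 5661 CPM (means), Gzmb moves from 156 to 1441 CPM, and Mcpt4, Tpsab1 and Gzmc stay below 5 CPM in every library.

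Mcpt8 and Prss34 were the most abundant of the 10 genes in both groups, and Mcpt8 rose while Prss34 was not called. Mcpt8 (chromosome 14, 56082166 to 56085273, GRCm38) had 35526, 34745 and 36850 counts in the PBS libraries and 59109, 69094 and 78572 in the IL-3 libraries. Scaled, these were 2906, 3046 and 3246 CPM against 5836, 5754 and 6094 CPM. The groups did not overlap, and the fold change was 1.92 with a 95% interval of 1.80 to 2.05 (edgeR quasi-likelihood test, adjusted p = 7.0e-11). Prss34 (chromosome 17, 25298394 to 25300165) had 5315, 5572 and 5957 CPM in PBS and 5869, 5585 and 5529 CPM in IL-3. Its groups overlapped, and the interval of its fold change was 0.946 to 1.07 (adjusted p = 0.860). Scaled by library totals, which shifted the median log2 fold change of all genes by -0.16, Prss34 was called lower at -0.15 (adjusted p = 0.0255).

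The ratio of both transcripts within a library does not depend on how libraries are scaled. Mcpt8 counts over Prss34 counts were 0.547, 0.547 and 0.545 in the PBS libraries. In the IL-3 libraries they were 0.994, 1.03 and 1.10. The SD of the log2 ratios was 0.0029 in PBS and 0.0755 in IL-3, and the mean log2 ratio was higher by 0.93 with IL-3. A two-sided exact permutation test gave p = 0.1, the smallest that 3 against 3 libraries allow, and 0.15 after Benjamini-Hochberg adjustment over the 9 genes compared with Prss34. The same p applied to Gzmb, Tpsg1, Cma1, Tpsb2 and Cpa3, whose ratios to Prss34 did not overlap between groups either. Their log2 ratios were higher by 3.19 (Gzmb), 1.56 (Tpsg1), 1.30 (Cma1), 1.03 (Tpsb2) and 0.52 (Cpa3). Relative to Fcer1g, the shared Fc receptor gamma chain, which was itself 1.46-fold higher with IL-3, the differences in log2 ratio were smaller. They were 2.67 for Gzmb, 1.03 for Tpsg1, 0.77 for Cma1, 0.50 for Tpsb2, 0.40 for Mcpt8 and -0.0063 for Cpa3.

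Gzmb (chromosome 14, 56258838 to 56262260) changed most. It had 1808, 1751 and 1877 counts in PBS and 16244, 16824 and 17012 counts in IL-3, or 148, 154 and 165 CPM against 1604, 1401 and 1319 CPM. The groups were far apart, with a fold change of 9.26 (95% interval 8.34 to 10.3, adjusted p = 8.8e-15). Of the 16675 genes tested, 51 had a larger log2 fold change, and 0.378% of genes were called with a log2 fold change above 3. The second granzyme, Gzmc (chromosome 14, 56231441 to 56234656), had only 2, 4 and 36 counts in PBS and 31, 10 and 15 in IL-3. PBS replicate 3 held most of the PBS counts, the groups overlapped, and the interval of the fold change ran from 0.478 to 3.79 (adjusted p = 0.677). Without PBS replicate 3, Gzmc was called higher (log2 fold change 2.64, adjusted p = 0.0104), and over the libraries left out in turn its log2 fold change ranged from -0.28 to 2.64.

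Markers of cytotoxic lymphocytes, which also make granzyme B, were measured in the same libraries. Of 12 markers of NK and cytotoxic T cells, 3 had enough counts to be tested and 1, Nkg7, was called higher (6.29 ± 1.11 to 29.3 ± 1.73 CPM). The summed level of the list was 9.33 to 13.6 CPM with PBS and 32.5 to 34.8 CPM with IL-3. Nkg7 alone held most of the IL-3 sum, and the 2 other tested markers, Cd8a and Il2rb, were not called. Gzma had 0 counts in all 6 libraries, which allows up to 3 counts or 0.233 to 0.296 CPM per library by counting error alone. Prf1, the perforin gene, had 1 or 2 counts per library, and Ncr1 had 0 to 6. Of 5 plasmacytoid dendritic cell markers, 3 were lower and none higher, with sums of 104 to 111 and 53.3 to 59.1 CPM, and Siglech had 4 to 15 counts per library. The part of lymphocytes or plasmacytoid dendritic cells in the change of Gzmb was not tested.

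**Figure D2:**
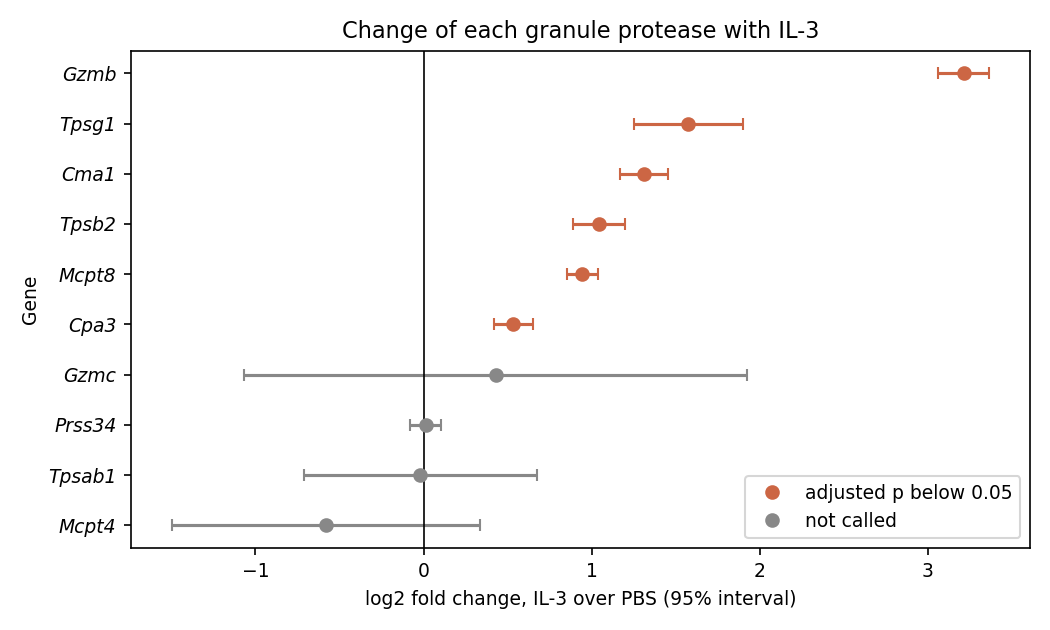
Log2 fold change of each of the 10 genes, IL-3 over PBS, with 95% intervals from the edgeR quasi-likelihood fit on 3 libraries per group. Orange points passed an adjusted p of 0.05. The interval of Prss34 is narrow and spans 0, while those of Gzmc, Tpsab1 and Mcpt4 are wide.

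Of the chymases, Cma1 rose and Mcpt4 was low in every library. Cma1 (chromosome 14, 55941451 to 55944675) had 87.8, 98.5 and 99.5 CPM in PBS and 227, 254 and 228 CPM in IL-3. Every IL-3 library was above every PBS library, and the fold change was 2.48 (95% interval 2.25 to 2.74, adjusted p = 2.4e-10). Mcpt4 (chromosome 14, 56059629 to 56062313), the chymase of connective tissue mast cells, had 52, 25 and 26 counts in PBS and 19, 7 and 43 in IL-3. Its groups overlapped and the interval of the fold change was 0.354 to 1.26 (adjusted p = 0.320). Without IL-3 replicate 3 it was called lower (log2 fold change -1.29, adjusted p = 0.0411), and its log2 fold change ranged from -1.29 to -0.15 over the libraries left out in turn.

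Of the 3 tryptases, Tpsb2 and Tpsg1 rose and Tpsab1 was not called. Tpsb2 (chromosome 17, 25366305 to 25369098) had 171, 191 and 174 CPM in PBS and 383, 395 and 325 CPM in IL-3, a fold change of 2.06 (95% interval 1.86 to 2.29, adjusted p = 9.2e-09). Tpsg1 (chromosome 17, 25369273 to 25374442), which encodes a tryptase with a membrane anchor, had 145, 199 and 147 counts in PBS and 385, 618 and 466 counts in IL-3. Its mean rose from 14.1 ± 2.96 to 41.9 ± 8.36 CPM, a fold change of 2.98 (95% interval 2.38 to 3.73, adjusted p = 5.8e-07). For both genes, no IL-3 library was as low as a PBS library. Tpsab1 (chromosome 17, 25343245 to 25345562) had 25, 21 and 18 counts in PBS and 17, 31 and 15 in IL-3. C57BL/6 mice are known not to make mMCP-7 protein from this gene. The groups overlapped, and the interval of the fold change ran from 0.610 to 1.60 (adjusted p = 0.972).

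Cpa3 (chromosome 3, 20215620 to 20242181) showed the smallest of the 6 increases. It had 510, 544 and 588 CPM in PBS and 796, 813 and 770 CPM in IL-3, and the groups did not overlap. The fold change was 1.45, with a 95% interval of 1.34 to 1.57 (adjusted p = 9.7e-07).

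Mast cell markers other than proteases were measured in the same libraries, since most of these genes are used to mark mast cells. Of 12 such markers, 10 were tested, 7 were higher and none was lower, with summed levels of 2740 to 3050 CPM with PBS and 7230 to 7350 CPM with IL-3. Most of this sum came from Cyp11a1 (1355 ± 86.0 and 3679 ± 21.9 CPM) and from Hdc, which basophils also express. Kit, the stem cell factor receptor, went from 73.9 ± 7.53 to 110 ± 3.03 CPM. Mrgprb2, the receptor that defines connective tissue mast cells, had 1 count in PBS replicate 1 and 0 counts in the other 5 libraries, and Mrgprb1 had 5 to 10 counts per library. Of the basophil markers, 8 of 10 were higher and 2 were lower. The lower ones were Fcer1a, the IgE receptor alpha chain, at 289 ± 16.0 and 204 ± 3.32 CPM, and Alox15 at 54.0 ± 3.12 and 22.7 ± 1.43 CPM. Of the monocyte and macrophage markers, 7 of 10 were lower and 2 were higher. The part of these other cell types in the change of the proteases was not tested.

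**Figure D3:**
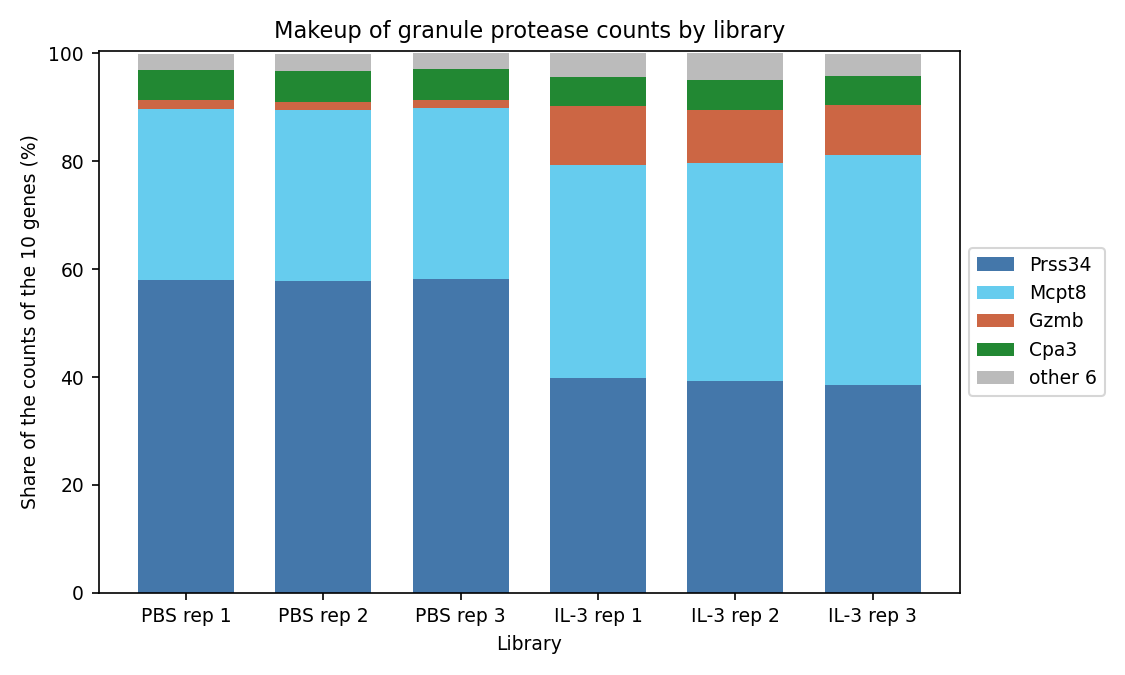
Share of the summed counts of the 10 genes taken by Prss34, Mcpt8, Gzmb, Cpa3 and the other 6 genes, in percent, for each of the 6 libraries. Prss34 takes 57.9 to 58.1% in the PBS libraries and 38.6 to 39.8% in the IL-3 libraries.

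Together the 10 genes took 0.954%, 1.01% and 1.10% of all counts in the PBS libraries and 1.42%, 1.35% and 1.32% in the IL-3 libraries. The share of the major genes differed little between the PBS libraries and more between the IL-3 libraries. Prss34 took 57.9 to 58.1% of them in PBS and 38.6 to 39.8% in IL-3. Mcpt8 went from 31.6 to 31.7% in PBS to 39.5 to 42.6% in IL-3, and Gzmb from 1.59 to 1.62% to 9.22 to 10.9%. Cpa3, although called higher in level, took 5.57 to 5.73% of the protease counts in PBS and 5.38 to 5.70% in IL-3. These shares are given per library as a description, with no test.

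Levels of different genes were compared as CPM per kb of the longest annotated transcript. In PBS, Prss34 led with 4602 ± 265 CPM per kb and Mcpt8 followed with 3245 ± 181 CPM per kb. In IL-3, Mcpt8 led with 6238 ± 188 CPM per kb and Prss34 followed with 4640 ± 150 CPM per kb. On this scale Prss34 held rank 9 of the 16217 tested genes with a length in PBS and rank 10 in IL-3, and Mcpt8 went from rank 15 to rank 7. Without division by length, Mcpt8 (5836, 5754 and 6094 CPM) and Prss34 (5869, 5585 and 5529 CPM) overlapped in IL-3. Whether reads of this protocol scale with transcript length was not tested.

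Below them in PBS came Cpa3 at 378 ± 26.8, Tpsb2 at 138 ± 8.61, Gzmb at 108 ± 6.20, Cma1 at 87.4 ± 5.96 and Tpsg1 at 11.9 ± 2.50 CPM per kb. With IL-3, Gzmb passed both Tpsb2 and Cpa3 and then stood next after Prss34 at 1004 ± 102 CPM per kb, ahead of Cpa3 at 547 ± 15.01, Tpsb2 at 285 ± 28.9, Cma1 at 217 ± 13.8 and Tpsg1 at 35.3 ± 7.05 CPM per kb. Its rank among all genes with a length went from 578 to 58. On the per-kb scale, neighbours in this order did not overlap over the 3 libraries of a group, except among the lowest 3 genes. Mcpt4, Gzmc and Tpsab1 were at 2.63, 1.37 and 0.946 CPM per kb in PBS and 1.74, 1.89 and 0.938 CPM per kb in IL-3, and each overlapped with the next in order. Mcpt4 lay wholly above Tpsab1 in PBS.

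**Figure D4:**
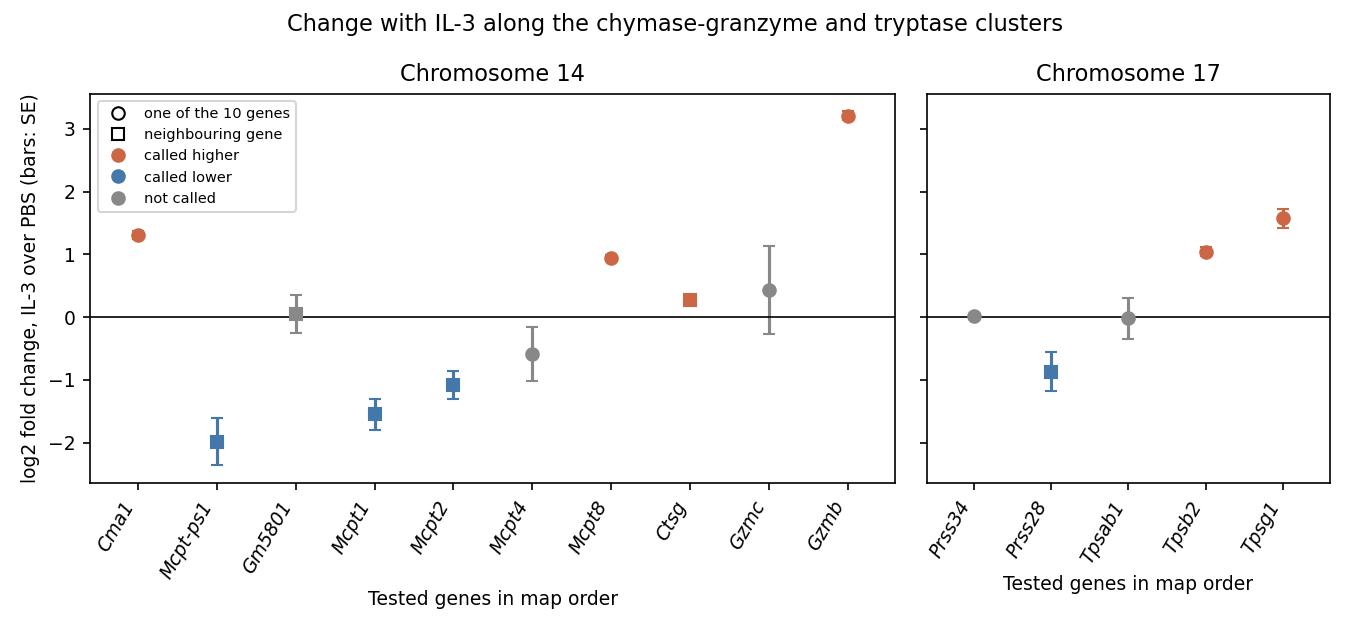
Log2 fold change with SE (IL-3 over PBS, 3 libraries per group) of the tested genes of the chymase-granzyme cluster on chromosome 14 and the tryptase cluster on chromosome 17, in map order. Circles are the 10 genes described and squares their neighbours. Each cluster holds genes called higher, genes called lower and genes not called, such as Mcpt8 at 0.94, Mcpt2 at -1.08 and Mcpt4 at -0.58. Of all tested genes, 18.0% were called higher and 20.2% lower.

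Both protease clusters held genes called higher and genes called lower. Such calls were common, at 18.0% (higher) and 20.2% (lower) of all tested genes. Between Cma1 and Gzmb on chromosome 14, a stretch of 321 kb (55941451 to 56262260, GRCm38), the annotation holds 26 genes, of which 15 are protein coding and 10 were tested. Of these, 4 were higher (Cma1, Mcpt8, Ctsg and Gzmb), 3 were lower (Mcpt-ps1, Mcpt1 and Mcpt2) and 3 were not called (Gm5801, Mcpt4 and Gzmc). Mcpt1 and Mcpt2 encode the proteases mMCP-1 and mMCP-2 of mucosal mast cells. Mcpt1 had 39.1, 29.3 and 72.4 CPM in PBS and 18.4, 12.8 and 16.99 CPM in IL-3 (log2 fold change -1.55, adjusted p = 0.00012), with PBS replicate 3 well above the other PBS libraries. Mcpt2 had 27.2, 15.2 and 24.0 CPM in PBS and 13.8, 11.2 and 6.83 CPM in IL-3 (log2 fold change -1.08, adjusted p = 0.0012). The immediate tested neighbours of Mcpt8 are Mcpt4, which was not called, and Ctsg, which encodes cathepsin G. Ctsg was higher by 0.28 on the log2 scale (adjusted p = 0.0080). Mcpt-ps1, a pseudogene, and Gm5801, another pseudogene, had at most 35 counts in any library.

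Between Prss34 and Tpsg1 on chromosome 17, a stretch of 76.0 kb (25298394 to 25374442), the annotation holds 9 genes, of which 6 are protein coding and 5 were tested. Tpsb2 and Tpsg1, which are adjacent and on the same strand, were higher. Prss28, a tryptase-related gene and the nearest tested neighbour of Prss34, was lower at 2.86 ± 0.681 (PBS) and 1.56 ± 0.548 CPM (IL-3) (adjusted p = 0.0391). Prss28 had 12 to 41 counts per library. Prss34 and Tpsab1 were not called.

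Of 21 other granule serine proteases (further granzymes, chymases, neutrophil proteases and tryptase relatives), 7 were tested, 1 was higher and 5 were lower, with a median log2 fold change of -1.08. The gene called higher was Ctsg. The lower genes included Prtn3, which encodes proteinase 3 of neutrophil granules and went from 10.1 ± 5.43 to 2.90 ± 1.53 CPM (adjusted p = 0.00091). Gzma, Gzmf, Gzmg, Gzmn and Prss33 had 0 counts in every library. Of 10 neutrophil markers, which also hold Ctsg and Prtn3, 7 were tested, 2 were higher and 2 were lower, and their summed level was 225 to 297 CPM with PBS and 332 to 384 CPM with IL-3.

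**Figure D5:**
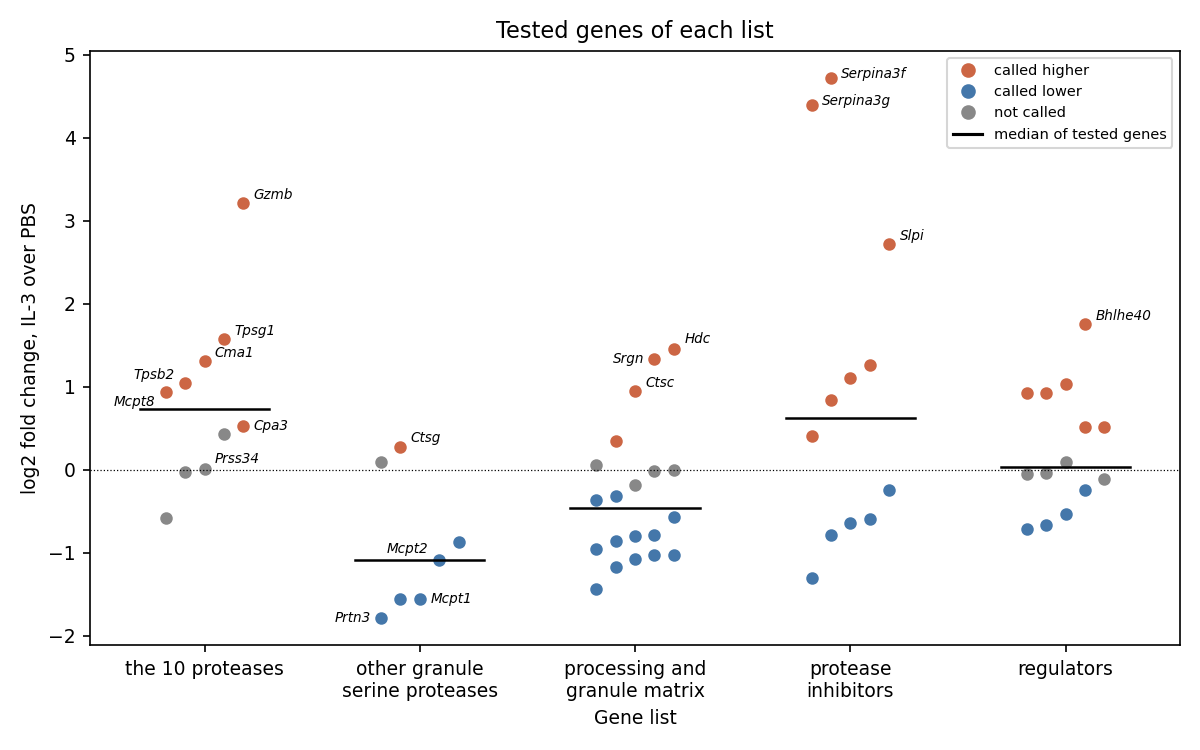
Log2 fold change (IL-3 over PBS, 3 libraries per group) of the tested genes of 5 lists, coloured by call, with black bars at list medians. The 10 proteases have a median of 0.74, other granule serine proteases -1.08, processing and matrix genes -0.46, inhibitors 0.63 and regulators 0.033.

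The genes that activate and store granule proteases moved in both directions. Of 20 genes for lysosomal proteases, the proteoglycan matrix, histamine synthesis and uptake and granule traffic, 4 were higher and 12 were lower, with a median log2 fold change of -0.46. Srgn, the serglycin core protein on which proteases are stored, had 1550, 1585 and 1595 CPM in PBS and 3888, 3999 and 4105 CPM in IL-3. Its groups did not overlap, and it rose by 1.34 on the log2 scale (adjusted p = 2.2e-13). Hdc, the enzyme that makes the histamine of the same granules, rose from 747 ± 29.6 to 2048 ± 32.3 CPM. Hdc and the amine transporter gene Slc18a2 also count among the mast cell markers above, as does Mitf among the transcription factors below. Ctsc, the peptidase that activates granzymes and chymases by trimming their precursors, rose from 82.5 ± 6.11 to 160 ± 5.28 CPM, and was chosen for naming after its values were seen. The lysosomal cathepsins Ctsd and Ctsb fell, Ctsd from 5414 ± 261 to 2787 ± 106 CPM and Ctsb from 3940 ± 203 to 1872 ± 113 CPM. Of the genes that build glycosaminoglycan chains, Xylt1, Xylt2, Ext1, Ndst2 and Chst15 were lower, with log2 fold changes of -0.79, -1.43, -0.86, -0.56 and -0.36. Chst11 was higher at 0.35, and Ndst1 and Ext2 were not called. These genes were likewise chosen after their values were seen. The monocyte and macrophage markers were lower in the same libraries, and their part in the change of this list was not tested.

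Of 18 genes for protease inhibitors, 12 were tested, 7 were higher and 5 were lower, with a median log2 fold change of 0.63. Slpi, an inhibitor of elastase, cathepsin G and chymase, had 493, 516 and 515 CPM in PBS and 3105, 3661 and 3279 CPM in IL-3. Its IL-3 libraries were several times above its PBS libraries (log2 fold change 2.72, adjusted p = 4.8e-15). Serpina3g, an intracellular serpin, had 16.0, 16.2 and 19.5 CPM in PBS and 367, 377 and 339 CPM in IL-3, and rose by 4.39 on the log2 scale. Serpina3f rose from 0.550 ± 0.316 to 14.7 ± 1.08 CPM, from 3, 10 and 6 counts in the PBS libraries. The cystatins Cst3 and Cstb, which inhibit cysteine cathepsins, fell by 0.24 and 0.64 on the log2 scale.

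Of 14 transcription factors that act in the basophil and mast cell lineages, all were tested, 6 were higher and 4 were lower, with a median log2 fold change of 0.033. Gata2, a factor that both lineages require, had 800, 731 and 865 CPM in PBS and 1476, 1594 and 1483 CPM in IL-3 (log2 fold change 0.93, adjusted p = 2.7e-09). Runx1 rose from 188 ± 1.66 to 357 ± 8.06 CPM, and Bhlhe40 from 97.8 ± 5.01 to 332 ± 11.7 CPM. Spi1, which encodes PU.1, was at 231 ± 4.38 and 226 ± 3.13 CPM with overlapping groups (adjusted p = 0.635).

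Eosinophil granules hold other cationic proteins rather than these proteases, and their markers were measured as well. Of 8 eosinophil markers, 5 were tested, 1 was higher and 3 were lower, with summed levels of 156 to 172 CPM with PBS and 97.9 to 138 CPM with IL-3. The gene called higher was Prg2, the major basic protein, at 4.27 ± 1.56 (PBS) and 49.8 ± 12.0 CPM (IL-3). The lower genes were Ear2, Ear1 and Siglecf. Ear2, which held most of the PBS sum, went from 134.5 ± 5.75 to 51.3 ± 8.39 CPM. Ear1 went from 12.9 ± 1.14 to 5.38 ± 0.860 CPM and Siglecf from 7.34 ± 1.31 to 4.13 ± 0.844 CPM.

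The genes whose pattern was most like that of Mcpt8 and of Gzmb were found over the 6 libraries, by the Euclidean distance between log2 CPM values centred on the mean of each gene, among 6692 genes with a mean of at least 20 CPM. For Mcpt8 they were Cd47 (distance 0.081), Ccr1 (0.082) and Tmem64 (0.090). Cd47, the ligand that inhibits phagocytosis, went from 275 to 535 CPM, and Ccr1, a chemokine receptor, from 155 to 302 CPM. For Gzmb the nearest genes were F2r (distance 0.173), Nt5e (0.284) and Pim2 (0.321). F2r, the thrombin receptor PAR1, which proteases activate by cleavage, went from 125 to 1110 CPM. Nt5e, the ectonucleotidase CD73, went from 11.8 to 115 CPM, and Pim2, a serine/threonine kinase, from 14.6 to 160 CPM. These neighbours mainly share the size of the group difference. Their log2 fold changes were 0.96, 0.964 and 0.94 for those of Mcpt8, and 3.16, 3.29 and 3.46 for those of Gzmb. They carry no test.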

How the data were processed

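The authors deposited raw read counts per gene symbol for all 6 libraries. According to the study's methods, polyadenylated RNA was reverse-transcribed and amplified as whole-transcriptome cDNA, without molecular identifiers being described. The authors' reads were trimmed (Cutadapt 3.4) and aligned to reference RNA of GRCm38 by Bowtie2, on one strand, while the submitters' processing notes list GRCm39. The labels name a column kit for extraction and the methods direct lysis. PCR copies were counted as reads, and the limits given for counts of 0 cover counting error only.

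Counts were filtered with filterByExpr, scaled by TMM and compared by the quasi-likelihood F test of edgeR 4.0.16 (R 4.3.3) with the group as the only term. The study itself used the package TCC. P-values are two-sided and were adjusted by Benjamini-Hochberg over all genes tested, and a gene was called below 0.05. Intervals are 95% intervals of the fit and include the spread between libraries. Ratios to Prss34 used counts plus 0.5 and an exact permutation test (SciPy 1.17.1). The pattern search also used a pseudocount of 0.5. Gene positions, transcript lengths (97.3% of tested genes) and coding sequences came from GENCODE M21, and promoters from RefSeq. Identity was computed with Biopython 1.88. The procedure was tried on simulated data in which few genes changed, as many up as down. It therefore did not test the scaling under the broad change seen here. DESeq2 1.42.0, library totals, other filters, a replicate block and leaving out each library were tried as alternatives.

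The 10 genes and all lists were chosen with earlier results of these data known. All 10 genes are named. Of each other list, the 3 most abundant genes and the 3 called genes of smallest adjusted p could be named, as well as tested genes between the outermost of the 10 on a chromosome and the 3 nearest in pattern to Mcpt8 and Gzmb. Those named outside this rule are markers that define a cell type, the listed proteases at 0 counts, Ctsc and the glycosaminoglycan genes. Alox15, Slc18a2, Mitf and the genes that share sequence with the 10 were also named outside it.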

Additional observations from a re-analysis of the deposited data

How the results depend on the processing

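Mcpt8, Cpa3, Cma1, Tpsb2, Tpsg1 and Gzmb were called higher under each of 14 alternatives, with log2 fold changes of 0.78 to 0.98, 0.37 to 0.59, 1.15 to 1.34, 0.88 to 1.13, 1.39 to 1.75 and 3.05 to 3.27. Scaling by library totals shifted the median log2 fold change of all genes by -0.16. Prss34 was then called lower at -0.15 (adjusted p 0.0255, range over its alternatives 0.0255 to 0.959), close to that shift, which made 1 of the 10 genes lower, and 1698 genes were called higher and 5030 lower. With each library left out in turn, 6 to 7 of the 10 genes were higher and 0 to 1 lower, against 2482 to 2787 and 2883 to 3108 of all genes. The 7th was Gzmc without PBS replicate 3, and the lower one was Mcpt4 without IL-3 replicate 3. Log2 fold changes then ranged from -0.0271 to 0.056 for Prss34, -0.381 to 0.236 for Tpsab1 and -0.275 to 2.64 for Gzmc. The log2 ratio of Tpsab1 to Prss34 ranged from -0.389 to 0.167, and that of Cpa3 became -0.00632 against Fcer1g. Without ribosomal RNA and mitochondrial genes, the 10 genes took 1.24% of counts in PBS and 1.65% in IL-3. Without length scaling, 8 of the 10 genes in PBS and 7 in IL-3 held the same rank among the 10. Mcpt8 and Prss34 then overlapped in IL-3. Fitting a replicate block gave 6 higher and 0 lower of the 10 genes, with 2842 and 3247 of all genes. Deviations of same-numbered libraries correlated at -0.0087, -0.016 and -0.022, so no pairing by number was seen. Such values cannot decide whether same-numbered cultures shared a source, which is not stated. The causes of these shifts were not tested. At most 52 counts per library limit what can be said of Tpsab1, Mcpt4 and Gzmc.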
